A study of Mus musculus with 8 samples.

Results

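The troponin and tropomyosin genes of striated muscle were followed in whole hearts of mice with a myocardial infarct and of sham-operated mice. The set was fixed by name and held 10 genes: Tnnt1, Tnnt2, Tnnt3, Tnni1, Tnni2, Tnni3, Tnnc1, Tnnc2, Tpm1 and Tpm2. Every spot whose single gene symbol in the platform annotation was one of these was taken, which gave 17 of 33600 spots. Of the 10 genes, 6 had a value on at least 3 arrays of each group and could be tested, among 18044 tested features in all. A feature is a gene averaged over its probes, or a spot without a single gene name. The other 4 were Tnnt2, Tnni3, Tnnc1 and Tnni1, whose values are described without a test.

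All mice were C57Bl/6, aged 8 to 10 weeks. In 4 infarcted mice a permanent ligature closed the left coronary artery at its descending branch, and in 4 sham control mice the chest was opened and the suture placed but not tied. How long the hearts were left after ligation was not given in the sources. Each heart was read on its own spotted array of long oligonucleotides, with the heart RNA in red against a common mouse RNA reference in green and no dye swap. RNA of a whole heart mixes scar, border and remote muscle, so fewer muscle cells and less RNA per muscle cell cannot be told apart.

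Troponin is the calcium switch of striated muscle. Troponin C binds calcium, troponin I holds contraction off until it does, and troponin T ties both to tropomyosin, the coiled rod that lies along the actin filament and covers the sites where myosin binds. Each troponin subunit has several genes. In the adult heart the cardiac genes Tnnt2 and Tnni3 work together with Tnnc1, which slow skeletal muscle shares, and with Tpm1. Tnnt1 and Tnni1 serve slow skeletal fibres, and Tnni1 is also the troponin I of the fetal heart. Tnnt3, Tnni2 and Tnnc2 serve fast skeletal fibres, and Tpm2 serves skeletal and smooth muscle. In the mouse genome the genes for troponin I and T stand in pairs. With 0 protein-coding genes between them, the slow Tnnt1 and the cardiac Tnni3 are direct neighbours on chromosome 7. The fast pair Tnni2 and Tnnt3 on chromosome 7 and the pair of Tnni1 and the cardiac Tnnt2 on chromosome 1 each have 1 coding gene between them.

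The promoters of 3 members are shown because their genes stand for both ends of the set. Tnnt2 and Tnnc1 gave some of the brightest spots of the heart, and Tnnc2, the fast skeletal counterpart of Tnnc1, gave a dim one. Each window runs from 250 bases before to 50 after the annotated start, 5′ to 3′ on the gene's strand, from RefSeq on GRCm38.p6. They are chr1:135836084-135836383 on the plus strand for Tnnt2 (the first of its annotated starts), chr14:31208062-31208361 on the plus strand for Tnnc1 and chr2:164779685-164779984 on the minus strand for Tnnc2. Capitals mark the E-box CANNTG, bound by myogenic and other basic helix-loop-helix factors, and the MCAT motif CATTCC, bound by TEAD factors, on either strand.
Tnnt2: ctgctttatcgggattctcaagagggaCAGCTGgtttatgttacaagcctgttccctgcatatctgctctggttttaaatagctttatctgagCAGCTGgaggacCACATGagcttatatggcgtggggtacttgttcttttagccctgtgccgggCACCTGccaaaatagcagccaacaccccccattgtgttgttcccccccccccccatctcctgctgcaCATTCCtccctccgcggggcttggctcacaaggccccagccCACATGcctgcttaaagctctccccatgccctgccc
Tnnc1: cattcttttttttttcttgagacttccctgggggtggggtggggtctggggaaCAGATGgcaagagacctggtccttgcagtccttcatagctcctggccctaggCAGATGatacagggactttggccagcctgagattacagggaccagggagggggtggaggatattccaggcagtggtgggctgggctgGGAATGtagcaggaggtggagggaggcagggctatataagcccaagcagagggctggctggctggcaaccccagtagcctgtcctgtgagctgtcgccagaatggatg
Tnnc2: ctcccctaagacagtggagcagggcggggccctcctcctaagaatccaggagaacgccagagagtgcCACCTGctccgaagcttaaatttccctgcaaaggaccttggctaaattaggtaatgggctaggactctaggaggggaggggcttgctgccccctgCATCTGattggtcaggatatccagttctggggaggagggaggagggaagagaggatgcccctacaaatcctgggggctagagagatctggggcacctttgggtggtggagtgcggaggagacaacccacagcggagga
The Tnnt2 window held 5 E-boxes and 1 MCAT motif, the Tnnc1 window 2 E-boxes and 1 MCAT motif on the other strand, and the Tnnc2 window 2 E-boxes and 0 MCAT motifs. Windows were found for 8 of the 10 genes, 10 windows in all, and Tnni2 and Tnnt3 had none. The other Tnnt2 window held 2 E-boxes and 0 MCAT motifs, and the 2 windows of Tnni1 overlap, so the 10 are not separate sequences. All 10 held an E-box, against 72.3% of the 32851 windows in the table, and 3 of 10 held an MCAT motif, against 14.7%. The MEF2 site and the CArG box were in 0 of the 10 windows and in 3.19% and 1.63% of all. A match to such short letters is a description and not a binding site.

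A level is the log2 of a spot's signal divided by the median signal of its block on that array, so a level of 0 is that of the median spot. Differences are infarcted minus sham control on that log2 scale. The values appear to hold 1 channel, taken here as the heart channel, which the sources do not state. Beside each level the scanner signal recovered from it can be given, on a scale that ends at 65536. Each probe has its own response, so a bright or dim spot describes that spot and does not rank the transcripts of different genes.

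The spots of Tnnt2, Tnni3 and Tnnc1, the troponin T, I and C of heart muscle, had sham control signals of 53811 to 62547 where present, near the top of the scanner scale, and infarcted signals of 13730 to 60154. Each had a value on fewer than 3 sham control arrays. They are therefore reported apart, with no fold change. Tnnt2 stood at 6.86 and 6.50 on sham control replicates 3 and 4 and had no value on replicates 1 and 2. On infarcted replicates 1, 2 and 4 it stood at 6.49, 5.90 and 6.01, and replicate 3 had no value. The recovered signals were 61121 and 53811 in the sham control hearts and 39569, 35390 and 28695 in the infarcted hearts. Both sham control levels thus lay above the 3 infarcted levels, by 0.01 at the nearest pair. On infarcted replicate 2 the end of the scale would have given a level below that of sham control replicate 3. The order of that pair could therefore not have been the reverse.

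Tnni3 had a value on 1 sham control array, replicate 4, at 6.56 with a signal of 59211. The 4 infarcted levels were 4.96, 5.87, 5.75 and 6.15 in replicate order, with signals of 13730, 33206, 42982 and 28245. Infarcted replicate 1 was the lowest, and no infarcted heart reached the single sham control level. On infarcted replicate 3 the end of the scanner scale would have given a level below that sham control level. That array could therefore not have reached it. Tnnc1 likewise had a value on sham control replicate 4 alone, at 6.81 with a signal of 62547. On the infarcted arrays it stood at 6.40, 6.09, 6.33 and 6.38, a mean of 6.30 ± 0.15 (SD, n = 4), with signals from 25804 to 60154. The infarcted hearts lay close together and below that 1 sham control heart. For Tnnc1 too, the end of the scale on infarcted replicate 3 would have given a level below the sham control one. The lower place of that array was therefore fixed beforehand.

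**Figure D1:**
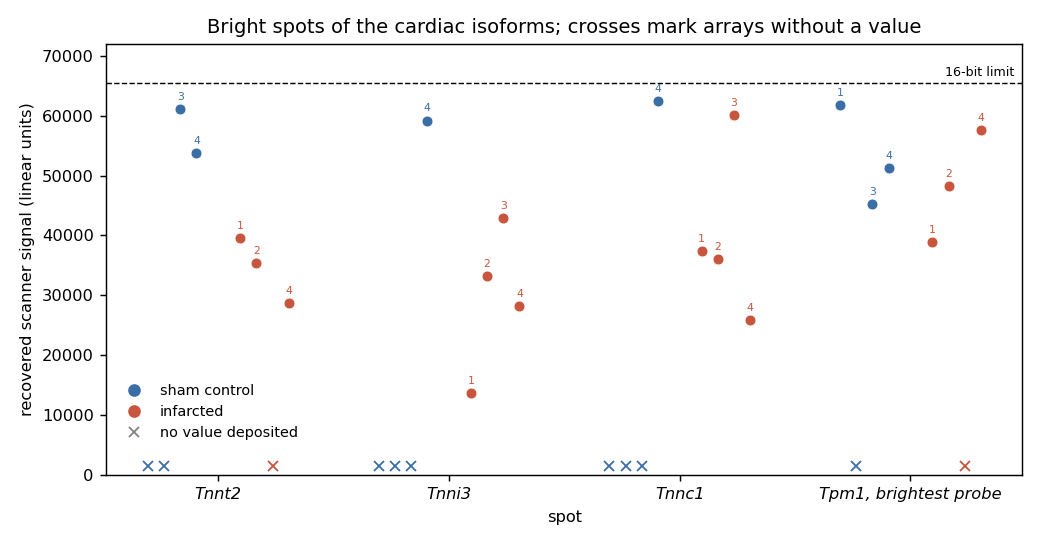
Recovered scanner signal (linear units) of the 4 spots of cardiac isoforms with a signal over 20000, by array, with replicate numbers beside the points. Blue is sham control and red infarcted, crosses mark arrays without a deposited value, and the dashed line is the 65536 limit of the scale. Values are missing mainly on sham control arrays: 3 of 4 for Tnni3 and for Tnnc1.

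The missing sham control values cannot be read as a low level, and what level those spots had is unknown. In 1073 spots the signal passed 20000 on 1 array or more. Of the 4292 values possible there in each group, sham control arrays lacked 190 and infarcted arrays 38. The range was 19 to 92 per sham control array and 5 to 14 per infarcted array. At 15 of these spots at least 3 sham control values and 0 infarcted values were missing, and the reverse pattern was found at 0 spots. Myl3, Mb, Fabp3 and Cox6a2, other abundant genes of heart muscle, had no value on any sham control array either. Lower values on the infarcted arrays were shared by most bright spots. Among the 353 brightest tested features, those whose mean level passed 5, a negative change was found for 342, with a median of -0.91, against a median of -0.08 for all 18044 features. After quantile normalization that median was -0.08, and no sham control level of the 3 troponins lay above all infarcted ones. For Tnnt2 they were then 6.30, just below the infarcted levels, and 6.36, within them, against 6.74, 6.31 and 6.35. For Tnni3 the value was 6.44 against 5.46 to 6.47, and for Tnnc1 it was 6.78 against 6.43 to 6.83. The brightest Tpm1 spot, with 3 values per group, then read 7.12, 5.78 and 6.18 in sham control hearts. In infarcted hearts it read 7.48, 7.16 and 7.34, all above the sham control levels. Quantile normalization gives every array the same distribution, so it largely removes a shared shift of bright spots by design. With more bright values missing on sham control arrays, the top ranks are also not the same spots. These values therefore cannot show whether the 3 troponins differed. When 2 values per group were allowed, Tnnt2 could be fitted at a change of -0.55 ± 0.34 (SE, limma adjusted p = 0.589), in a setting in which groups with all infarcted levels lower made up 7.65% of 19936 features.

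Of the 6 tested genes 0 rose and 0 fell (limma, Benjamini-Hochberg adjusted p under 0.05), where 0.549% of all features passed, 0.0554% higher and 0.493% lower. At an unadjusted p under 0.05 there was 1, Tnnc2, and the share of all features was 12.3%. The groups overlapped for all 6, while they did not overlap for 8.89% of all features. The change was positive for 5 of the 6, with a median of 0.46, against 42.5% positive over all features. The cardiac side of that comparison rests on Tpm1 alone, so a shift between cardiac and skeletal isoforms could not be assessed from the tested genes.

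**Figure D2:**
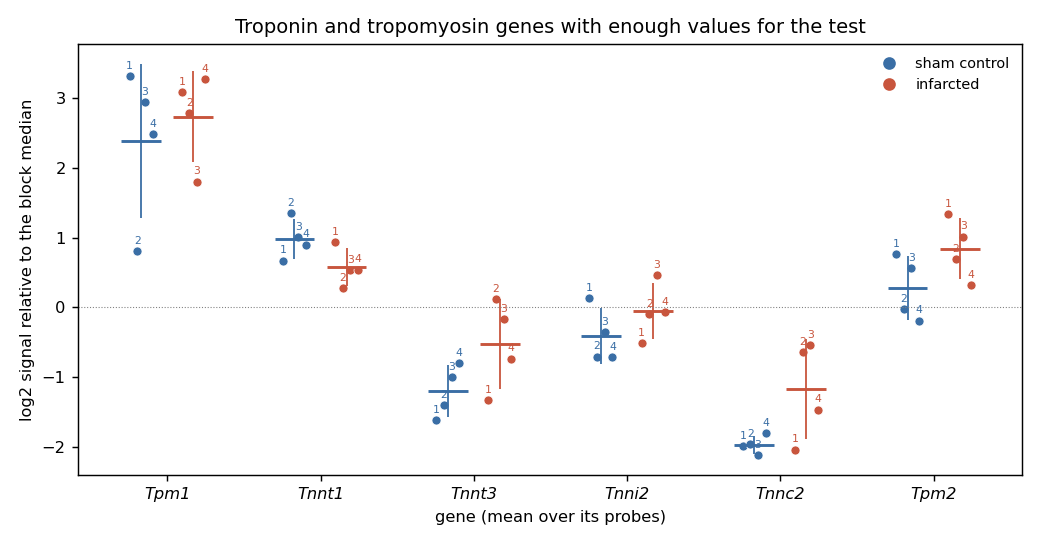
Level of the 6 tested genes on each array (log2 signal relative to the block median, averaged over a gene's probes), sham control in blue and infarcted in red, with replicate numbers. Horizontal lines are group means and vertical lines 1 SD over 4 arrays. The groups overlap for every gene, and the highest Tnnc2 and Tnnt3 levels belong to infarcted replicates 2 and 3.

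Tpm1, the tropomyosin of heart muscle, had 4 probes. Their average stood at 3.32, 0.80, 2.95 and 2.48 in sham control replicates 1 to 4 and at 3.09, 2.78, 1.80 and 3.27 in the infarcted hearts. The change was 0.35 ± 0.53 (SE, 95% interval from -0.84 to 1.54, adjusted p = 0.851). The low values of sham control replicate 2 and infarcted replicate 3 are those of the 2 arrays that lacked the brightest probe. Without sham control replicate 2 the change was -0.18, with infarcted replicate 3 still lacking that probe. With an additive fit of probe and array, which a missing probe does not shift and which was chosen after seeing the data, it was 0.35 ± 0.28 (adjusted p = 0.684).

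The Tpm1 probes did not move together. The brightest read 7.87, 6.37 and 6.37 on sham control replicates 1, 3 and 4 and 7.37, 6.89 and 7.24 on infarcted replicates 1, 2 and 4, a change of 0.30 ± 0.44 (SE). Its signals were 61729, 45321 and 51224 in those sham control hearts and 38830, 48236 and 57542 in those infarcted hearts. On sham control replicate 4 the end of the scale would have given a level below all 3 infarcted ones. That array could therefore not have stood above them. Probe 1 ran from 2.06 to 2.64 in sham control and from 2.32 to 2.63 in infarcted hearts. Probe 2 ran from 1.61 to 3.12 and from 1.89 to 2.45, a change of -0.32 ± 0.34. Probe 3, below or near the block median, stood at -0.36, -1.25, 0.03 and -1.12 in the sham control hearts and at 0.47, -0.05, 0.65 and 0.85 in the infarcted hearts. Its change was 1.16 ± 0.34 (adjusted p = 0.173 over all probes), the largest of the 12 member probes tested, with groups that overlapped at 1 array each. All 4 carry the single symbol Tpm1 in the annotation. Probe sequences were not used here, so the splice form each one reads is unknown here.

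**Figure D3:**
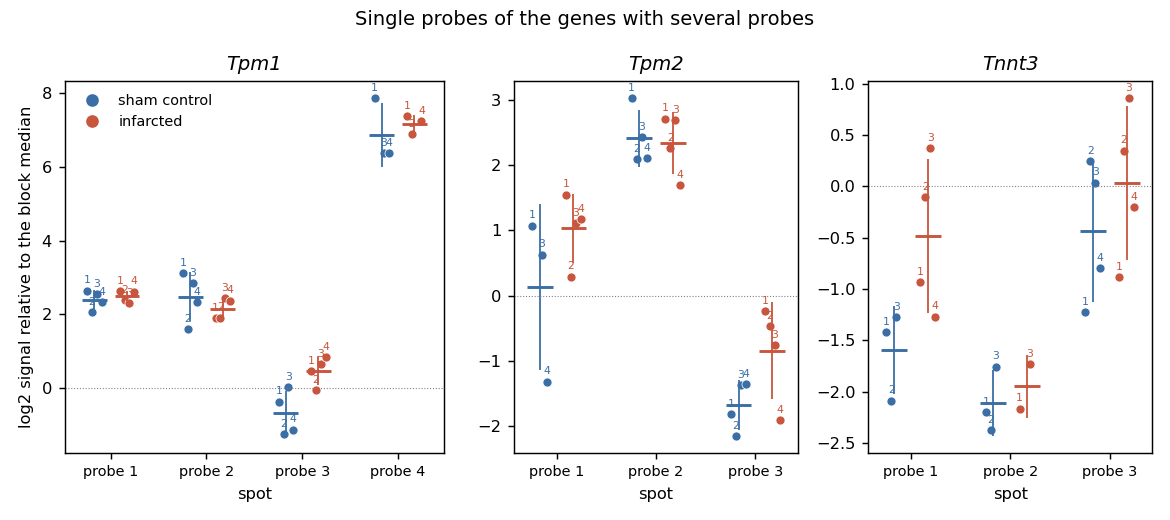
Levels of the single probes of Tpm1, Tpm2 and Tnnt3 on each array (log2 signal relative to the block median; each panel has its own axis), sham control in blue and infarcted in red, with group means and 1 SD. Tpm1 probe 3 is higher in most infarcted hearts, whereas Tpm1 probe 2 and Tpm2 probe 2 are not.

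Among the slow skeletal genes, Tnnt1 was the only tested member with a negative change. It stood at 0.67, 1.35, 1.01 and 0.90 in the sham control hearts and at 0.94, 0.28, 0.54 and 0.54 in the infarcted hearts. Infarcted replicates 2, 3 and 4 lay below all sham control hearts and replicate 1 within them. The change was -0.41 ± 0.24 (SE, 95% interval from -0.94 to 0.12, adjusted p = 0.542). Over the 20 alternative settings it ran from -0.53 to -0.27. Several of these, such as no centring or another prior, leave the change of a gene with 1 complete probe as it is by design. Tnni1, the slow skeletal and fetal troponin I, had 1 value on 8 arrays, -1.73 in sham control replicate 4 with a signal of 131. No infarcted array gave a value for Tnni1, which says only that none was deposited for this spot.

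The average levels of the fast skeletal genes lay near or below the block median, and the highest of each was in an infarcted heart. Tnnc2, the fast skeletal troponin C, stood at -1.99, -1.96, -2.12 and -1.80 in the sham control hearts and at -2.04, -0.64, -0.54 and -1.47 in the infarcted hearts. Infarcted replicates 2, 3 and 4 lay above every sham control heart, and replicate 1 lay among them. Signals ran from 67 to 118 in the sham control and from 64 to 305 in the infarcted hearts, where the lowest of the table was 42. The change was 0.80 ± 0.34 (SE, 95% interval from 0.05 to 1.55, unadjusted p = 0.0397, adjusted p = 0.373), and it ran from 0.59 to 1.09 over the alternatives without passing in any (adjusted p from 0.24 to 0.686).

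Tnnt3, the fast skeletal troponin T, had 3 probes whose average stood at -1.61, -1.41, -0.998 and -0.79 in the sham control hearts and at -1.33, 0.12, -0.16 and -0.73 in the infarcted hearts. Infarcted replicates 2 and 3 were again the highest. These averages do not rest on the same probes, since sham control replicate 4 had probe 3 alone and infarcted replicates 2 and 4 lacked probe 2. On probe 3, the only one complete on 8 arrays, infarcted replicates 3 and 2 stood at 0.86 and 0.35 and the next array, sham control replicate 2, at 0.25. The change was 0.68 ± 0.34 (SE, 95% interval from -0.09 to 1.44, adjusted p = 0.471). Probe 1 gave 1.11 ± 0.42 on 3 sham control and 4 infarcted arrays (adjusted p = 0.319). Its groups did not overlap, but its nearest levels were -1.28 and -1.27. Its sham control signals were 124, 58 and 176, near the lowest of the table, 42. Probe 3 gave 0.47 ± 0.44, and probe 2 had too few values. When the median effect of the position within a block was removed, the change of Tnnt3 was 0.25 (adjusted p = 0.848).

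Tnni2, the fast skeletal troponin I, stood at 0.13, -0.71, -0.35 and -0.72 in the sham control hearts and at -0.51, -0.10, 0.46 and -0.07 in the infarcted hearts. Infarcted replicate 3 was the highest array, followed by sham control replicate 1, so the groups were mixed. The change was 0.36 ± 0.29 (SE, 95% interval from -0.28 to 1.00, adjusted p = 0.684), and it was 0.05 without sham control replicates 2 and 4, the 2 sham control arrays with the fewest values.

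Tpm2, the beta tropomyosin of skeletal and smooth muscle, had 3 probes. Their average stood at 0.76, -0.03, 0.56 and -0.19 in the sham control hearts and at 1.34, 0.69, 1.02 and 0.32 in the infarcted hearts. Sham control replicate 2 had no value for probe 1, so its average rests on probes 2 and 3. Infarcted replicates 1 and 3 lay above all sham control hearts, and the other infarcted hearts lay within their range. The change was 0.57 ± 0.31 (SE, 95% interval from -0.12 to 1.25, adjusted p = 0.505). Probes 1 and 3 gave 0.90 ± 0.56 and 0.83 ± 0.37, and probe 2 gave -0.08 ± 0.31, so the gene's direction depends on which probe is read. Sham control signals of probe 3 ran from 82 to 169, near the lowest of the table, 42. Those of probe 1 ran from 201 to 1075 and those of probe 2 from 1439 to 4109. Without the 2 sham control arrays with the fewest values the change of Tpm2 was 0.18.

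**Figure D4:**
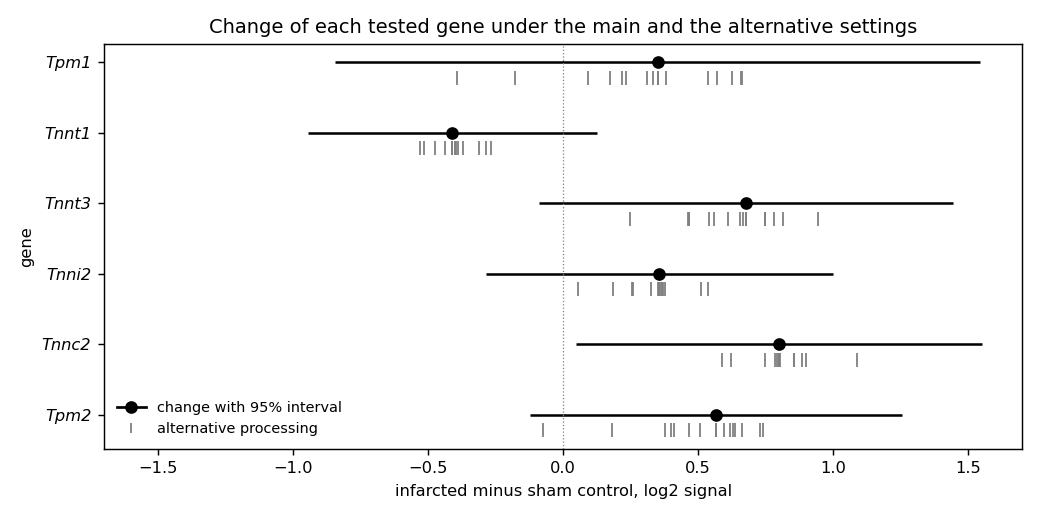
Change of the 6 tested genes, infarcted minus sham control, in log2 signal (black points with 95% intervals of the limma fit); grey ticks are the values under the 20 alternative settings. The interval spans 0 for 5 genes and runs from 0.05 to 1.55 for Tnnc2, which did not pass after adjustment.

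Markers of other cells were read on the same arrays. Of 23 skeletal muscle markers 16 were named on the array and 8 tested, 5 with a positive change and 0 past the threshold, with a median change of 0.23. Mylpf, the fast skeletal regulatory light chain, stood at -0.98, -3.00, -2.35 and -2.38 in the sham control hearts and -1.41, -0.18, -0.36 and -0.53 in the infarcted hearts, a change of 1.55 ± 0.44 (SE, adjusted p = 0.167). Its infarcted replicates 2 and 3 were the highest, as for Tnnc2 and Tnnt3. The next by p were Jsrp1 (0.51 ± 0.31), Casq1 (-0.64 ± 0.46) and Mybpc2 (0.25 ± 0.25). The mean level of the 4 markers complete on 8 arrays ran from -1.14 to -0.41 in the sham control and from -0.57 to -0.04 in the infarcted hearts, highest in infarcted replicates 3 and 2. All 16 named markers were also summed on the unlogged scale, on each array over those with a value there. The log2 of that sum ran from 1.88 to 2.61 in sham control and from 2.31 to 2.81 in infarcted hearts. The myogenic factors Myod1, Myog, Myf5 and Myf6 and the channel subunit Cacng1 had no value on any array. What part skeletal muscle RNA has in the fast troponin values was not tested.

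Heart muscle markers were high in both groups, as the tissue label has it. The 9 markers complete on 8 arrays had mean levels of 4.02 to 4.46 in sham control and 3.77 to 3.98 in infarcted hearts. Of 11 tested 0 passed, 4 had a positive change and the median was -0.44. The smallest p belonged to Csrp3, a Z-disc protein (-0.98 ± 0.20, SE, adjusted p = 0.0772). Myoz2 (-0.74 ± 0.24), Mybpc3 (-1.11 ± 0.38) and Nkx2-5 (-0.62 ± 0.25) followed. Csrp3, Myoz2 and Mybpc3 were among the 353 brightest tested features, where 342 changes were negative and the median was -0.91.

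Of 18 other genes of the thin filament and its partners 14 were on the array and 12 could be tested. Of these 0 passed, 6 had a positive change and the median was 0.00. Fhl2, a LIM protein that binds titin, stood at -1.16 ± 0.32 (SE, adjusted p = 0.178). It ran from 5.33 to 5.99 in infarcted hearts and from 6.26 to 7.35 in 3 sham control hearts. Fhl2 too was among the 353 brightest tested features, of which 342 had a negative change. Neb, the ruler of the skeletal thin filament, stood at 0.65 ± 0.26, its cardiac relative Nebl at 0.74 ± 0.35 and Tmod3, which caps the pointed end, at 0.41 ± 0.21. Actc1, the cardiac actin on which the troponins sit, had a value on 1 sham control array, 6.64, and 6.03 to 6.54 on 4 infarcted arrays, the pattern of Tnni3 and Tnnc1. Tpm3, another tropomyosin gene, stood at -0.06 ± 0.22. Of 8 tested kinases and phosphatase subunits that act on cardiac troponin 0 passed and 2 had a positive change. Rock1 was at 0.99 ± 0.35 (adjusted p = 0.285) and Prkce at -0.72 ± 0.38.

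In the remaining lists 0 of 9 smooth muscle, 0 of 10 fibroblast, 0 of 9 macrophage and 0 of 5 natriuretic peptide and fetal genes passed, and 1 of 9 endothelial genes did, Ramp2, lower by a change of -3.05 ± 0.31 (SE, adjusted p = 0.01). Acta2 stood at -0.73 ± 0.31 and Cnn1 at 0.70 ± 0.35. Smooth muscle, which also uses Tpm1 and Tpm2, had mean marker levels of 1.02 to 1.86 in sham control and 0.93 to 1.59 in infarcted hearts, ranges that overlapped. Macrophage genes had a positive change in 8 of 9, with a median of 0.69, led by Gpnmb at 1.58 ± 0.31 (adjusted p = 0.06). Fcgr1 of that list had values on 3 sham control and 0 infarcted arrays and was not tested. Of the natriuretic peptide and fetal genes 3 of 5 had a positive change, with a median of 0.88. The smallest p there belonged to Nppb (0.91 ± 0.29, higher in every infarcted heart) and Myh7 (1.79 ± 0.75). Among the fibroblast genes it belonged to Postn (1.76 ± 0.54) and Col3a1 (-0.61 ± 0.22), and 3 of 10 had a positive change.

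The genes whose level followed each member most closely over the 8 arrays were looked up among 8844 genes with a value on every array. Tnnt3 and Tnnc2 were among each other's nearest, with a Pearson correlation of 0.91, and shared Tlr2 (0.94 and 0.87). Supt20 (0.87) came next for Tnnt3 and Cd53 (0.86) for Tnnc2. Nearest to Tnni2 were Ppm1m (0.96), Dnajc8 (0.96) and Tmem126b (0.94), and to Tnnt1 Mrpl55 (0.98), Ntpcr (0.93) and Klhdc2 (0.93). Nearest to Tpm1 were Irf8 (0.96), Synpo (0.95) and Bbs5 (0.94), and to Tpm2 Ppp6r2 (0.95), Topors (0.94) and Hspa12b (0.93). These correlations describe 8 arrays that share the array-wide differences in signal, and they were picked as the highest of 8844. The lowest Tpm1 averages, of sham control replicate 2 and infarcted replicate 3, lack its brightest probe. The Tnnt3 and Tpm2 averages also lack probes on some arrays. What part missing probes have in these correlations was not tested.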

How the data were processed

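Whole hearts of 4 sham control and 4 infarcted mice were grouped by their labels. The values are log2, as deposited, for 33600 spots and 8 arrays. In each of 48 blocks of 700 spots, 2 to the power of the value times 1 constant per array was a whole number (tolerance 0.001), from 42 to 65466, and every array's median was 0, so the authors appear to have divided 1 channel's signal by the block median. No source used here names their software, a background correction or the reason a spot has no value, and nothing was filled in for missing values (8781 to 13896 spots per array). With 1 channel, spot differences between arrays are not divided out by the reference.

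Spots were named by the platform annotation (18179 with 1 symbol, 87 with several, 15334 with none), and the 10 genes' Entrez identifiers matched their symbols in RefSeq. Probes of a gene were averaged, arrays centred on the median, and features with at least 3 of 4 values per group tested with limma 3.58.1 in R 4.3.3 (lmFit, eBayes), with Benjamini-Hochberg adjustment over 18044 features and a threshold of 0.05. The script was tested on simulated data. P-values measure the spread between hearts and arrays together, and precision is limited by the number of arrays. Array pairs within a group correlated at no more than 0.947 over genes, so none were copies. Alternatives covered normalization, missing values, probe rules, the prior, the replicate block, spot position and leaving out arrays.

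The members, the gene lists and the tests were chosen with earlier results of these data known. The text names all 10 genes, genes of each list past the threshold and up to 2 or 4 more with the smallest p, list genes above a signal of 20000 with no value in 1 group, and for each complete gene the 3 most correlated. A few further list genes are named besides.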

Additional observations from a re-analysis of the deposited data

How the results depend on the processing

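The count of 0 changed troponin and tropomyosin genes held in all 20 alternative settings. One of them, no centring, repeats the main fit because every array's median was already 0. Over all features the count of changes was 99 in the main setting, 32 after quantile normalization, 157 with each probe as a feature and 31 with the effect of spot position removed. It was 25, 37, 28 and 666 without sham control replicate 1, 2, 3 or 4, 10, 6, 3 and 4 without infarcted replicate 1, 2, 3 or 4, and 1132 without the 2 sham control arrays with the fewest values. With the replicate number as a block it was 1. Deviations of same-numbered arrays from their group means correlated at 0.12, 0.35, 0.01 and -0.04, and replicates 3 and 4 did not correlate best with their own number, so the numbers were not taken to pair the hearts.

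The median change of the tested skeletal genes was 0.57 in the main setting, 0.36 with each probe as a feature, 0.33 with spot position removed and 0.18 without the 2 sham control arrays with the fewest values, and it ran from 0.41 to 0.74 with 1 array left out. The cardiac median, which is that of Tpm1, ran from -0.18 to 0.66 with 1 array left out. Tpm1 turned to -0.18 without sham control replicate 2 and to -0.39 without the 2 sham control arrays with the fewest values. Tpm2 turned to -0.076 when probe 2 alone stood for the gene. Probe 3, as complete and passed over because it comes later in the table, gave 0.83. What caused these turns was not tested. The Tpm1 averages of sham control replicate 2 and infarcted replicate 3 lack the brightest probe. In both settings that leave out sham control replicate 2 and turn Tpm1, infarcted replicate 3 is the only array left without it. The sham control signals of Tnnc2, from 67 to 118, lie near the lowest of the table, 42, and those of Tnnt2, Tnni3 and Tnnc1, where present, near the top of the scale. Those of Tnnt3 probe 1 and Tpm2 probe 3 were also low, from 58 to 176 and from 82 to 169. Those of the brightest Tpm1 probe were high, from 45321 to 61729.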

Other observations

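Of 2663 genes with several probes, 2105 (79.0%) had a pair of probes exactly 5600 spots apart, the same position 8 blocks on. The first 3 probes of Tpm1, the 3 probes of Tpm2 and probes 2 and 3 of Tnnt3 were spaced in this way.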
